A study of Saccharomyces cerevisiae with 8 samples.

Results

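The genes examined here were the 39 nuclear genes for the respiratory chain of *Saccharomyces cerevisiae*, out of 6103 genes in the table of all genes. They were taken by locus name and comprise 4 subunits of complex II, 9 of complex III, 9 of complex IV and 12 of ATP synthase, together with 2 cytochromes *c* and 3 NADH dehydrogenases. All 39 were found in the table and in the R64 annotation. mRNA was sequenced from 4 strains at 30°C with 2 libraries each, 8 in all: *sin3∆*, *srb2∆* and *mig1∆*, in which *KanMX* took the place of the whole open reading frame, and their parent, the wild type ScY01a. ScY01a is a haploid of mating type **a** that descends from an evolved thermotolerant industrial yeast, and all strains were grown to early log phase for 10 h in YP medium with 200 g/L glucose, with shaking at 200 rpm. The study calls its RNA-seq cultures at a higher temperature micro-aerobic, and the oxygen supply of those at 30°C is not given in the sources used here. Sin3p holds histone deacetylases together on chromatin, Srb2p belongs to the head module of the transcription coactivator Mediator, and Mig1p is the DNA-binding repressor at glucose-repressed promoters. How many transformants stand behind a deletion strain, and whether the 2 libraries of a strain came from separate cultures, is not given in the sources used here, so that a p-value below measures only the spread between libraries.

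The respiratory chain sits in the inner mitochondrial membrane. Succinate dehydrogenase (complex II) and the NADH dehydrogenases feed electrons into ubiquinone, cytochrome *bc*1 (complex III) passes them to cytochrome *c*, and cytochrome *c* oxidase (complex IV) passes them to oxygen. ATP synthase uses the proton gradient that complexes III and IV build. *S. cerevisiae* has no proton-pumping complex I and uses single-protein NADH dehydrogenases in its place. It is known for shutting down respiration in high glucose even in the presence of oxygen, and for exchanging some subunits for isoforms when oxygen or heme is scarce.

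Values are listed as RPKM, read numbers corrected for gene length and depth, and carry a scaling between libraries, with sums of 862336 to 1150769 per library. *SIN3*, *SRB2* and *MIG1* were at 0 in the strains that lack them. Genes for cytosolic ribosomal proteins took 41.1% of the summed values in either *sin3∆* library, 42.8% and 42.0% in the *srb2∆* libraries, and 24.1% and 25.9% in *mig1∆*, against 19.3% and 22.5% in the wild type. Of the genes that mark **a** cells, *STE2* lay between 145 and 477 RPKM, while the short pheromone genes *MFA1* and *MFA2* were listed at 0 in all 8 libraries. The 4 **a**-cell genes tested, *STE2* among them, were all called lower in *sin3∆*, beside 12.2% of all genes, and none was called in *srb2∆* or *mig1∆*. The log2 fold change of *STE2* in *sin3∆* was -1.63 (adjusted p = 1e-06, limma). Of the alpha-cell genes, *STE3* stayed at or under 0.352 RPKM, *MF(ALPHA)1* at or under 4.41 RPKM, and *MF(ALPHA)2* and *SAG1* lay between 11.2 and 21.8 RPKM. At these low values *MF(ALPHA)1* was also called lower, in *sin3∆* (-1.45, adjusted p = 0.00874, limma) and *srb2∆* (-2.01, adjusted p = 0.0018, limma). *MF(ALPHA)2* and *SAG1* were called in neither. The part of these shifts in the results below was not tested. In bulk RNA, fewer cells of a kind and less RNA per cell cannot be told apart. Read counts were not used here. A fragment of 240 bases was assumed, and the worth of 1 read pair was chosen in each library to bring low genes nearest to whole numbers. In 6 of the 8 libraries, 72.0% to 85.4% of the values of low genes then lay within 0.1 of a whole number of read pairs, a share that the choice itself raises. On that scale, 1 read pair in a gene with a kilobase of coding sequence was worth 0.0772 to 0.101 RPKM. In *mig1∆* replicate 2 and wild-type replicate 3 the share was 27.0% and 34.3%, and no scale was kept.

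Calls came from limma on log2(RPKM + 1), the scale of all log2 fold changes given, over 5628 genes. They required the fold change to reach 2 and the adjusted p not to exceed 0.05. In *sin3∆* 12 of the 37 members tested were called lower (32.4%), beside 12.2% of all genes, and 0 were called higher, beside 17.7% of all genes. There, 32 of the 37 had an unadjusted p under 0.05 in either direction (limma), beside 4288 of all 5628 genes. In *srb2∆* 14 were called lower (37.8%), beside 14.9% of all genes, and 2 higher (5.4%), beside 15% of all genes. In *mig1∆* only *CYC7* was called higher (2.7%), beside 0.995% of all genes, and 0 members were called lower, beside 0.657% of all genes. An unadjusted p under 0.05 (limma) was found for 11 of the 37, near the share over all genes, 1625 of 5628. The median log2 fold change of the members was -0.67 in *sin3∆*, -0.80 in *srb2∆* and -0.01 in *mig1∆*, where that of all genes was 0.01, -0.01 and 0.03. Between the deletions, *SDH1*, *SDH2*, *COX5B*, *CYC7* and *NDE2* were called higher in *sin3∆* than in *srb2∆* (5 of 37, 13.5%, beside 11.9% of all genes) and *NDE1* was called lower (1 of 37, 2.7%, beside 2.95%). Both shares were near those of all genes. The 3 comparisons with the wild type share its 2 libraries. Without genes under 300 coding bases, a choice made after seeing the data, 30 members were tested, of which 9 were lower in *sin3∆*, beside 12% of all genes, and 11 in *srb2∆*, beside 14.5%.

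**Figure D1:**
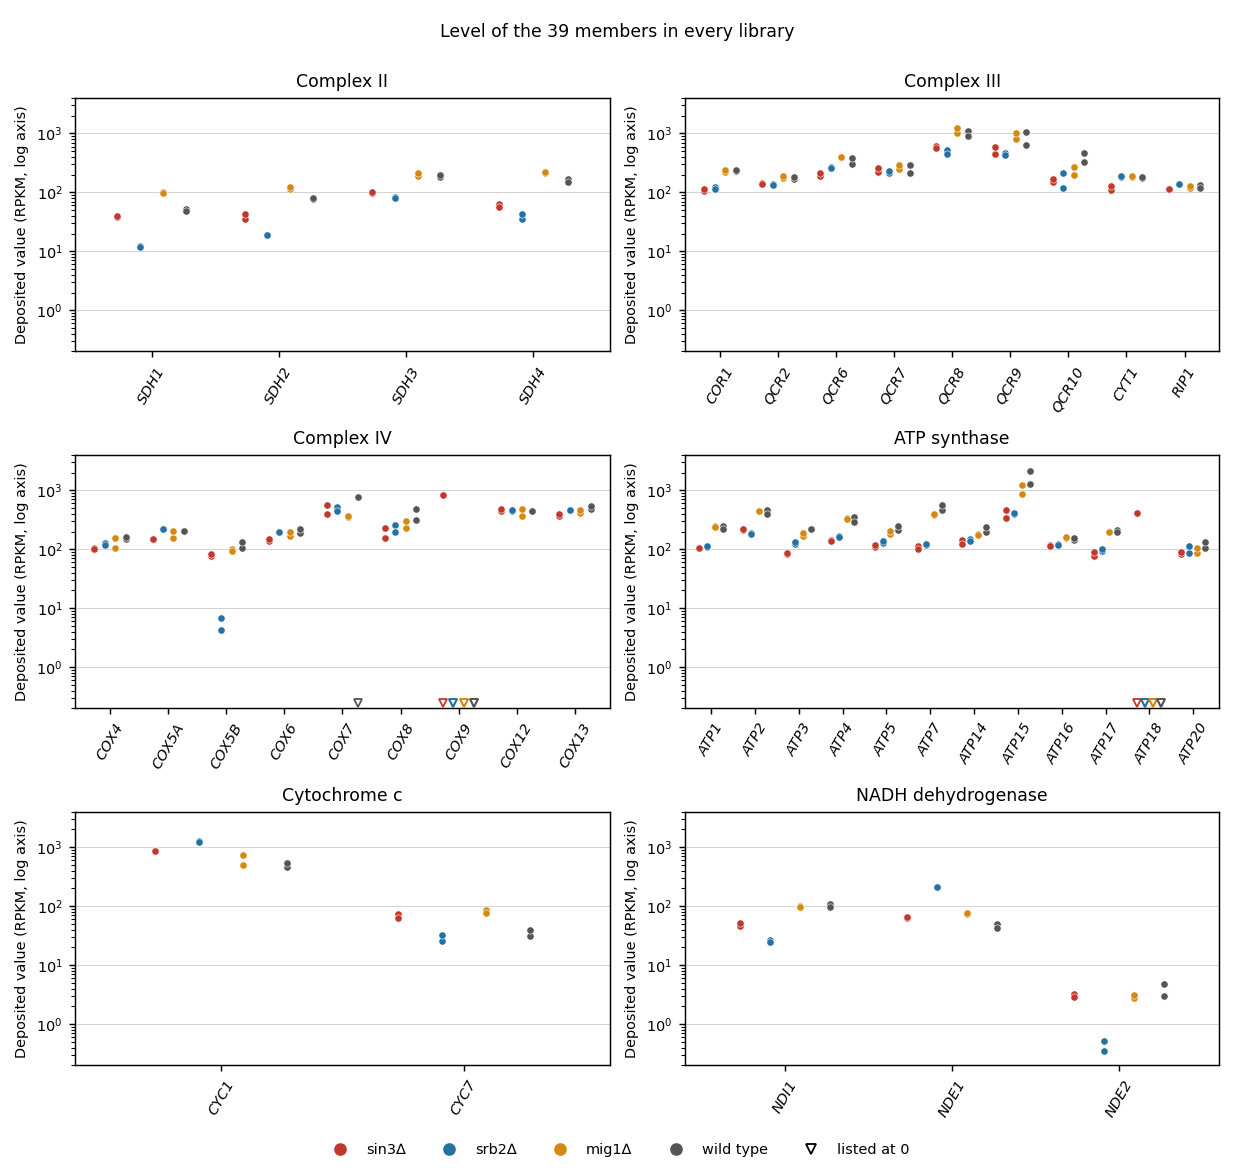
Deposited values (RPKM, log axis) of the 39 members in every library, with a panel per complex and a point per library; an open triangle marks a library in which the gene was listed at 0. *COX5B* at 4.31 and 6.87 RPKM and *NDE2* at 0.514 and 0.344 RPKM in *srb2∆* are the points that lie farthest below the other strains, and *COX9* and *ATP18* are above 0 in a single library.

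The complexes did not move alike, as the summed values of their members show. The 11 ATP synthase members that were above 0 in all libraries summed to 1649 and 1536 RPKM in *sin3∆*, 1674 and 1739 RPKM in *srb2∆*, and 3233 and 3665 RPKM in *mig1∆*, against 3913 and 4797 RPKM in the wild type. The 4 genes of complex II summed to 236 and 243 RPKM in *sin3∆*, 150.4 and 152 RPKM in *srb2∆*, and 624 and 658 RPKM in *mig1∆*, against 479 and 476 RPKM in the wild type. For both, the *sin3∆* and *srb2∆* libraries lay below the wild-type ones, and for complex II the *mig1∆* libraries lay above them. The ATP synthase sums lean on 1 short gene, *ATP15*, of 189 coding bases. It made up 456 and 341 RPKM of them in *sin3∆*, 390.3 and 418 RPKM in *srb2∆*, and 862 and 1228 RPKM in *mig1∆*. In the wild type it made up 1293 and 2125 RPKM. Complex III stood at 0.618 times its wild-type mean in *sin3∆* and 0.608 times in *srb2∆*. Complex IV, over its 7 members above 0 in all libraries, stood at 0.746 times in *sin3∆* and 0.824 times in *srb2∆*. The sum of the cytochromes *c*, most of it *CYC1*, went the other way, with 1.73 times the wild-type mean in *sin3∆*, 2.36 times in *srb2∆* and 1.30 times in *mig1∆*. When ribosomal protein genes were left out of the total, the share of ATP synthase was 0.391 times that of the wild type in *sin3∆* and 0.462 times in *srb2∆*, in place of 0.291 and 0.337 times with them, and the share of complex IV in *srb2∆* was 0.97 times, in place of 0.707 times.

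**Figure D2:**
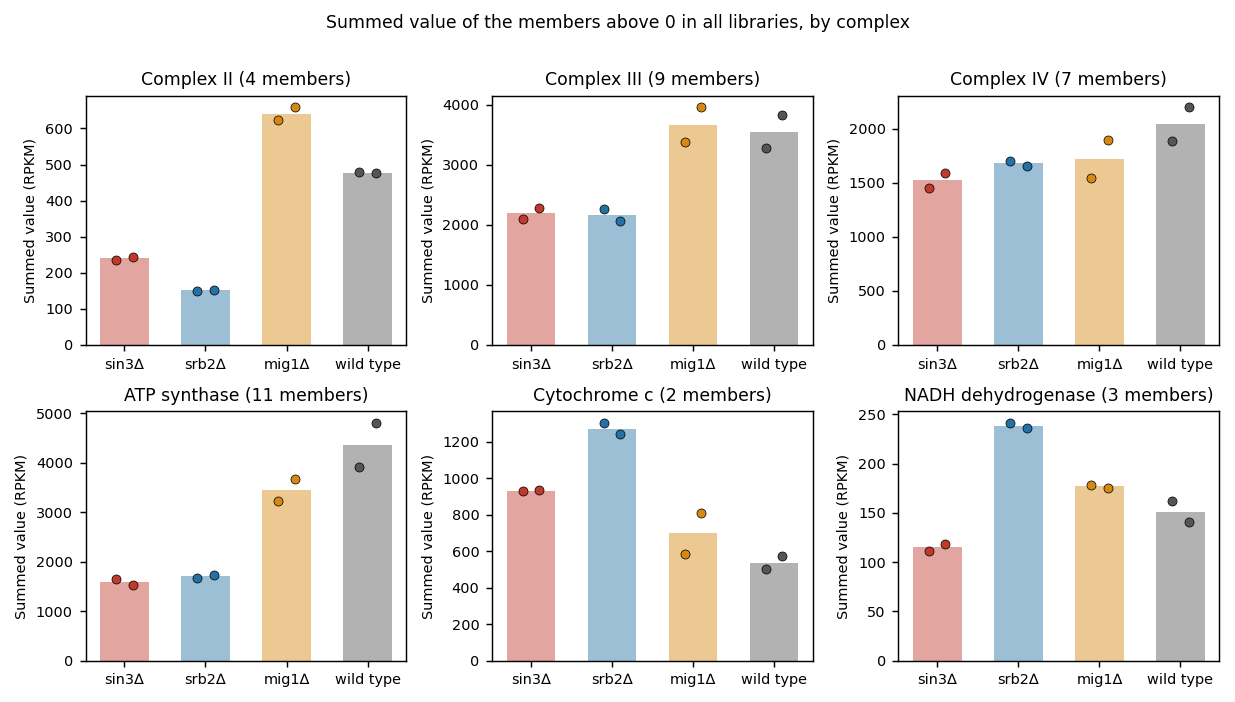
Summed values (RPKM) of the members above 0 in all libraries, by complex; points are libraries and bars the mean of the 2 libraries of a strain. ATP synthase and complex II are lower in *sin3∆* and *srb2∆* than in the wild type. The sum of the cytochromes *c*, most of it *CYC1*, is highest in *srb2∆*, at 1300.3 and 1239 RPKM.

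The largest fall and the largest rise among the members called in *srb2∆*, those of *COX5B* and *NDE1*, were in isoform pairs. Subunit V of cytochrome *c* oxidase is made from *COX5A*, the form used when oxygen is ample, or from *COX5B*, the form favoured at low oxygen. *COX5B* (YIL111W, chromosome IX from 155222 to 155765, with an intron) stood at 78.4 and 84.5 RPKM in *sin3∆*, 4.31 and 6.87 RPKM in *srb2∆*, and 99.2 and 92.3 RPKM in *mig1∆*, against 105 and 132 RPKM in the wild type. Its *srb2∆* libraries lay far below all the others, and its log2 fold change there was -4.20 ± 0.19 (SE, adjusted p = 1.25e-06), which ranked 54 from the lowest of 5628 genes. It was called neither in *sin3∆* (-0.53, adjusted p = 0.0344) nor in *mig1∆* (-0.30, adjusted p = 0.337), and the difference between *sin3∆* and *srb2∆* was itself called, at 3.67 ± 0.19 (SE, adjusted p = 5.25e-06). *COX5A* (YNL052W, chromosome XIV from 531725 to 532186) was called in no comparison, and missed only the fold threshold in *sin3∆* (-0.45, adjusted p = 0.00881, limma). It stood at 148 and 150.1 RPKM in *sin3∆*, 221 and 225 RPKM in *srb2∆*, and 154 and 201 RPKM in *mig1∆*, against 207 and 202 RPKM in the wild type. *COX5B* therefore held 34.6% and 36.03% of the summed level of both genes in the *sin3∆* libraries, 1.91% and 2.96% in those of *srb2∆*, and 39.1% and 31.5% in those of *mig1∆*, against 33.7% and 39.5% in the wild type. With 1 added to each value, the log2 ratio of *COX5A* to *COX5B* was 4.33 higher in *srb2∆* than in the wild type, 0.08 higher in *sin3∆* and 0.08 higher in *mig1∆*. With 2 libraries against 2, an exact two-sided permutation test cannot go below p = 0.3333, the value it gave for *srb2∆*.

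Cytochrome *c* is made as iso-1 from *CYC1*, the main form in air, and as iso-2 from *CYC7*. *CYC1* (YJR048W, chromosome X from 526335 to 526664) lay far above its partner in every library, with 855 and 870.5 RPKM in *sin3∆*, 1274 and 1206 RPKM in *srb2∆*, and 499.6 and 732 RPKM in *mig1∆*, against 470.4 and 535 RPKM in the wild type. The *srb2∆* libraries were the highest, and *CYC1* was called higher there (1.30 ± 0.17 SE, adjusted p = 0.000265), while *sin3∆* stayed under the fold threshold (0.78 ± 0.17 SE, adjusted p = 0.00377) and the *mig1∆* libraries overlapped those of the wild type. *CYC7* (YEL039C, chromosome V from 79636 to 79977) stood at 74.2 and 64.2 RPKM in *sin3∆*, 26.0 and 32.6 RPKM in *srb2∆*, and 84.4 and 77.7 RPKM in *mig1∆*, against 30.8 and 38.7 RPKM in the wild type. It was called higher in *mig1∆* (1.21 ± 0.15 SE, adjusted p = 0.00346), was just under the threshold in *sin3∆* (0.98 ± 0.15 SE, adjusted p = 0.000615) and overlapped the wild type in *srb2∆* (-0.24, adjusted p = 0.184). Without *sin3∆* replicate 2 or wild-type replicate 3, *CYC7* was called in *sin3∆*, at 1.08 and 1.14. It was also called higher in *sin3∆* than in *srb2∆* (1.21 ± 0.15 SE, adjusted p = 0.000345). The share of *CYC7* in the summed level of both genes was 7.98% and 6.87% in the *sin3∆* libraries, 2.00% and 2.63% in those of *srb2∆*, and 14.5% and 9.59% in those of *mig1∆*, against 6.15% and 6.74% in the wild type.

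The NADH dehydrogenases did not move together in *srb2∆*, where *NDE1* was higher and *NDI1* and *NDE2* were lower. *NDI1* (YML120C, chromosome XIII from 28266 to 29807) encodes the enzyme that oxidizes NADH of the mitochondrial matrix, and *NDE1* (YMR145C, chromosome XIII from 554793 to 556475) and *NDE2* (YDL085W, chromosome IV from 303211 to 304848) encode enzymes that face the intermembrane space and oxidize cytosolic NADH. *NDI1* stood at 45.6 and 50.8 RPKM in *sin3∆*, 27.1 and 24.2 RPKM in *srb2∆*, and 102 and 95.1 RPKM in *mig1∆*, against 107 and 95.3 RPKM in the wild type. It was called lower in *sin3∆* (-1.06 ± 0.098 SE, adjusted p = 4.61e-05) and in *srb2∆* (-1.94 ± 0.098 SE, adjusted p = 2.23e-06), and the *mig1∆* and wild-type libraries overlapped. The call in *sin3∆* was near the threshold and was lost without *sin3∆* replicate 1 (-0.98) or wild-type replicate 2 (-0.97). *NDE1* stood at 62.7 and 64.5 RPKM in *sin3∆*, 213 and 212 RPKM in *srb2∆*, and 73.6 and 77.1 RPKM in *mig1∆*, against 49.5 and 42.6 RPKM in the wild type. Both libraries of each deletion lay above those of the wild type, and *NDE1* was called higher in *srb2∆* (2.19 ± 0.083 SE, adjusted p = 6.61e-07), with values under the fold threshold in *sin3∆* (0.46, adjusted p = 0.00156) and *mig1∆* (0.70, adjusted p = 0.00305). It was called lower in *sin3∆* than in *srb2∆* (-1.72 ± 0.083 SE, adjusted p = 4.03e-06). *NDE2* was the lowest member above 0 in all libraries, with 3.24 and 2.90 RPKM in *sin3∆*, 0.514 and 0.344 RPKM in *srb2∆*, and 2.76 and 3.11 RPKM in *mig1∆*, against 4.77 and 2.99 RPKM in the wild type. It was called lower in *srb2∆* (-1.75 ± 0.22 SE, adjusted p = 0.000223), where its values stood for about 11.1 and 7.1 read pairs on the scale above, and it was not tested when a minimum of 10 RPKM was asked for. With a pseudocount of 5 the fall of *NDE2* was -0.70 and was not called. The ratio of *NDE1* to *NDE2* was 19.4 and 22.2 in the *sin3∆* libraries, 415 and 615 in those of *srb2∆*, and 26.7 and 24.8 in those of *mig1∆*, against 10.4 and 14.2 in the wild type.

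**Figure D3:**
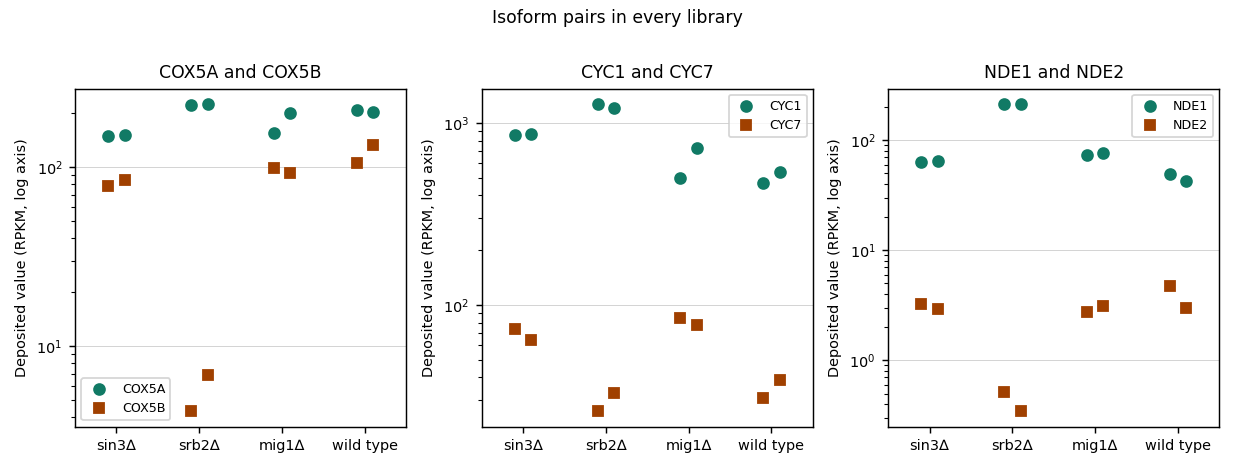
Deposited values (RPKM, log axis) of the isoform pairs *COX5A* and *COX5B*, *CYC1* and *CYC7*, and *NDE1* and *NDE2* in the 2 libraries of each strain. The distance between the members of each pair is widest in *srb2∆*, where *COX5B* is at 4.31 and 6.87 RPKM and *COX5A* at 221 and 225 RPKM.

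The members of a pair differ along their length. The coding sequences of *COX5A* and *COX5B* were 64.7% identical over the alignment, those of *CYC1* and *CYC7* 74.3% and those of *NDE1* and *NDE2* 61.3%, and the longest stretch they shared without a mismatch was 12, 35 and 11 bases. How reads common to a pair were divided was not tested. The DNA before the 6 genes is shown because these genes moved apart within each pair. Each stretch is 300 bases of the R64 reference, from 400 to 101 bases before the start codon, in the direction of the gene. Capitals mark matches, on either strand, to CCAAT (the box of the Hap2-Hap3-Hap4-Hap5 activator), its longer form TNATTGGT, ATTGTT (the core bound by the hypoxic repressor Rox1), the forms bound by Mig1p (GCGGGG and also CCGGGG as well as GTGGGG besides CTGGGG), and GCCGCC (the core bound by Ume6, which recruits Sin3p).
COX5A (chrXIV:531325-531624, plus strand): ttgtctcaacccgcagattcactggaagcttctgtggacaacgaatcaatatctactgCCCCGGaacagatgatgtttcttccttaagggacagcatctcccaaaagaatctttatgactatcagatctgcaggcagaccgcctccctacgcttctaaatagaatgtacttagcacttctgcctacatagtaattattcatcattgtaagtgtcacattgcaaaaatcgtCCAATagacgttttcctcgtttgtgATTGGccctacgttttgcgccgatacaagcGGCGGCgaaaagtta
COX5B (chrIX:154822-155121, plus strand): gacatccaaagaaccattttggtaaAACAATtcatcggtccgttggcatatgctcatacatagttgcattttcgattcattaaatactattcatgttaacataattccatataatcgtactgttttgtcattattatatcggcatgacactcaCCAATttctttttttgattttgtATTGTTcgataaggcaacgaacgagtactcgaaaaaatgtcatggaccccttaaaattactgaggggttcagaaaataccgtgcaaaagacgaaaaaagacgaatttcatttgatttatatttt
CYC1 (chrX:525935-526234, plus strand): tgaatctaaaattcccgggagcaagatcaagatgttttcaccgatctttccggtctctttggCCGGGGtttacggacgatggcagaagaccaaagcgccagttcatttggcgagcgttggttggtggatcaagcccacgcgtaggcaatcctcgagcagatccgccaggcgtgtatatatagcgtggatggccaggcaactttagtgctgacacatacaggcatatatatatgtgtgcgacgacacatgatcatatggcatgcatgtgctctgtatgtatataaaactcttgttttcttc
CYC7 (chrV:80078-80377, minus strand): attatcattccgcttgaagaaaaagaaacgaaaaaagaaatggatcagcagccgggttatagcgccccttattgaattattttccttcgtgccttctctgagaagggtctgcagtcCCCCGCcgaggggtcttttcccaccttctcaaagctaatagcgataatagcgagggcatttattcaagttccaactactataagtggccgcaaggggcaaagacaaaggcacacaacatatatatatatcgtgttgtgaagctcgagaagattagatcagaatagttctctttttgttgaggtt
NDE1 (chrXIII:556576-556875, minus strand): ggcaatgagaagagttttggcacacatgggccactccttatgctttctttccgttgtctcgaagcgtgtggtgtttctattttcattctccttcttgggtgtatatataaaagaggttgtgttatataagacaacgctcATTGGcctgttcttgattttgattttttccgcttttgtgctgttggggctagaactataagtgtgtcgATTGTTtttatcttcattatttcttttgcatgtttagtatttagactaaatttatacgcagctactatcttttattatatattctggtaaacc
NDE2 (chrIV:302811-303110, plus strand): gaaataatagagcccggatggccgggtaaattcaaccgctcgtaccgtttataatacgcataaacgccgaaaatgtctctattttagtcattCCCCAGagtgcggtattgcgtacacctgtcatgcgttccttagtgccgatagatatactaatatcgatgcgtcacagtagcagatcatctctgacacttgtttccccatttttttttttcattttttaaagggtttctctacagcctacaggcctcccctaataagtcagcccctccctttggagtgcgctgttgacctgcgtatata

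The stretch of *COX5A* held 4 matches, of which 2 were CCAAT, 1 was a Mig1 form and 1 was GCCGCC, and 87 of its bases lay in a neighbouring gene. The stretch of *COX5B* held 3, with 1 CCAAT and 2 ATTGTT, and 25 of its bases lay in a neighbouring gene. *CYC1*, *CYC7* and *NDE2* each held 1 match, all of them a Mig1 form, and *NDE1* held 2, of which 1 was CCAAT and 1 was ATTGTT. These counts leave out matches nearer to the start codon. The longer box that begins 73 bases before *COX5B* lies outside its stretch. The end of the *NDE1* stretch cuts the longer box that begins 103 bases before that gene. A match says only that these letters stand in the reference, which is not the sequence of ScY01a.

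Complex II was lower as a whole in *srb2∆*, where all 4 genes were called lower, beside 14.9% of all genes. *SDH1* (YKL148C, chromosome XI from 169207 to 171129), the flavoprotein subunit that binds succinate, stood at 38.7 and 39.9 RPKM in *sin3∆*, 12.2 and 11.6 RPKM in *srb2∆*, and 101 and 97.6 RPKM in *mig1∆*, against 52.1 and 48.6 RPKM in the wild type. The 4 strains lay apart from each other without overlap, with *mig1∆* highest and *srb2∆* lowest. Its log2 fold change was -1.99 ± 0.071 in *srb2∆* (SE, adjusted p = 5.22e-07), -0.35 ± 0.071 in *sin3∆* (SE, adjusted p = 0.00284) and 0.96 ± 0.071 in *mig1∆* (SE, adjusted p = 0.000616), the last 2 under the fold threshold. Without wild-type replicate 2, *SDH1* was called higher in *mig1∆*, at 1.01. *SDH2* (YLL041C, chromosome XII from 53131 to 53931), the iron-sulfur subunit, stood at 35.99 and 43.1 RPKM in *sin3∆*, 19.1 and 18.6 RPKM in *srb2∆*, and 116 and 124 RPKM in *mig1∆*, against 77.2 and 79.6 RPKM in the wild type. *SDH4* (YDR178W, chromosome IV from 817950 to 818495), a membrane anchor, stood at 63.98 and 57.4 RPKM in *sin3∆*, 35.998 and 43.2 RPKM in *srb2∆*, and 216 and 221 RPKM in *mig1∆*, against 169 and 153 RPKM in the wild type. Both genes kept the same order of strains as *SDH1*. *SDH2* was called lower in *srb2∆* (-1.999 ± 0.094 SE, adjusted p = 1.6e-06), and in *sin3∆* it stood at -0.97 ± 0.094 (SE, adjusted p = 5.75e-05), just short of the threshold, which it passed at -1.10 without *sin3∆* replicate 2. *SDH4* was called lower in *srb2∆* (-2.0 ± 0.10 SE, adjusted p = 2.67e-06) and in *sin3∆* (-1.39 ± 0.10 SE, adjusted p = 1.62e-05). *SDH3* (YKL141W), the other anchor, was called in *srb2∆* only (-1.21, adjusted p = 9.92e-06). *SDH1* and *SDH2* were called higher in *sin3∆* than in *srb2∆*, at 1.64 (adjusted p = 2.19e-06) and 1.02 (adjusted p = 9.47e-05), and the call of *SDH2* was lost at 0.90 without *sin3∆* replicate 2 and at 0.99 with median-ratio scaling.

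Complex III changed less than complex II. Of its 9 genes, *COR1* (YBL045C) and *QCR10* (YHR001W-A) were called lower in *sin3∆*, beside 12.2% of all genes, and *QCR8* (YJL166W) and *QCR10* in *srb2∆*, beside 14.9%. *COR1* (chromosome II from 134143 to 135516), a core subunit, stood at 106 and 114 RPKM in *sin3∆*, 122 and 116 RPKM in *srb2∆*, and 225 and 237 RPKM in *mig1∆*, against 229 and 235 RPKM in the wild type. The *sin3∆* and *srb2∆* libraries lay well below the others, and the call rested on the threshold alone, with -1.07 ± 0.070 in *sin3∆* (SE, adjusted p = 7.74e-06) and -0.96 ± 0.070 in *srb2∆* (SE, adjusted p = 1.3e-05). *QCR10* (chromosome VIII from 107826 to 108122, 234 coding bases), a small subunit, stood at 148 and 168 RPKM in *sin3∆*, 216 and 120.3 RPKM in *srb2∆*, and 201 and 273 RPKM in *mig1∆*, against 325 and 466 RPKM in the wild type. Its libraries spread widely within *srb2∆* and the wild type, and its fall of -1.27 ± 0.29 in *srb2∆* (SE, adjusted p = 0.00583) was no longer called at -0.85 without *srb2∆* replicate 3, while that in *sin3∆* was -1.29 ± 0.29 (SE, adjusted p = 0.00507). *QCR8*, another small subunit, stood at 619.9 and 572 RPKM in *sin3∆*, 529 and 447 RPKM in *srb2∆*, and 1022 and 1228 RPKM in *mig1∆*, against 1110.0 and 921 RPKM in the wild type, and fell in *srb2∆* (-1.06 ± 0.14 SE, adjusted p = 0.00029). Its call was lost without *srb2∆* replicate 3 (-0.93) or wild-type replicate 2 (-0.92). Of the subunits that carry the electrons, the nuclear-encoded *CYT1* and *RIP1* were not called, and the mitochondrially encoded *COB* was not analysed. *CYT1* (YOR065W), cytochrome *c*1, stood at 112 and 127 RPKM in *sin3∆*, 182 and 189 RPKM in *srb2∆*, and 183 and 191 RPKM in *mig1∆*, against 176 and 184 RPKM in the wild type. Its log2 fold change in *sin3∆* was -0.59 (adjusted p = 0.000334, limma), under the fold threshold. *RIP1* (YEL024W), the Rieske iron-sulfur protein, stayed between 113 and 141 RPKM in all 8 libraries. *QCR2* (YPR191W), *QCR6* (YFR033C), *QCR7* (YDR529C) and *QCR9* (YGR183C) were not called either, and *QCR9* passed the threshold in *sin3∆* (-1.03) and *srb2∆* (-1.23) without wild-type replicate 2.

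Apart from *COX5B*, few complex IV genes passed the threshold. *COX4* (YGL187C), *COX6* (YHR051W), *COX12* (YLR038C) and *COX13* (YGL191W) were called in no comparison, with log2 fold changes from -0.58 for *COX4* in *sin3∆* to 0.06 for *COX12* in *sin3∆*. In *sin3∆*, *COX4* (adjusted p = 0.011), *COX6* (-0.51, adjusted p = 0.00254) and *COX13* (-0.40, adjusted p = 0.00675, limma) were lower and missed only the fold threshold. *COX12*, which lies on the outer side of the complex, was among the steadiest members, at 452 and 478 RPKM in *sin3∆*, 445 and 456 RPKM in *srb2∆*, and 372 and 473 RPKM in *mig1∆*, against 449 and 443 RPKM in the wild type. *COX8* (YLR395C, chromosome XII from 909729 to 909965, 237 coding bases), a small membrane subunit, stood at 155 and 229 RPKM in *sin3∆*, 254 and 199.8 RPKM in *srb2∆*, and 225 and 307 RPKM in *mig1∆*, against 312 and 485 RPKM in the wild type. It was called lower in *sin3∆* (-1.04 ± 0.27 SE, adjusted p = 0.0101), a call that was lost without *sin3∆* replicate 1 (-0.76) or wild-type replicate 3 (-0.73). In *srb2∆* it stood at -0.79 (adjusted p = 0.034) and passed the threshold at -1.10 without wild-type replicate 2.

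Of the members under 200 coding bases, *COX9*, *ATP18* and *COX7* could not be compared. *COX9* (YDL067C, 180 coding bases) was listed at 838 RPKM in *sin3∆* replicate 1 and *ATP18* (YML081C-A, 180 coding bases) at 419 RPKM in the same library, and both were listed at 0 in the other 7 libraries, so that neither was tested. *COX7* (YMR256C, 183 coding bases) stood at 393 and 555 RPKM in *sin3∆*, 524 and 450.0 RPKM in *srb2∆*, and 348 and 372 RPKM in *mig1∆*, while the wild type had 774 RPKM in replicate 2 and was listed at 0 in replicate 3. *COX7* counts among the 37 members tested and was called in no comparison, and its fold changes against the wild type depend on that 0. In the table of all genes, 14 of the 19 protein-coding genes under 200 bases that reached 10 RPKM were listed at 0 in some library, as were 22 of 142 genes of 200 to under 300 bases (15.5%) and 18 of 5046 longer ones (0.357%). *ATP15*, at 189 coding bases, is the remaining member under 200 bases. It was above 0 in all libraries and was compared, but is of the length at which such zeros were frequent.

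ATP synthase, the largest group, had the most genes called by number, all lower. They were 7 of 11 tested in *sin3∆*, beside 12.2% of all genes, and 5 in *srb2∆*, beside 14.9%. By share, more were called lower in *srb2∆* in complex II, 4 of 4, and among the NADH dehydrogenases, 2 of 3. *ATP7* (YKL016C, chromosome XI from 407465 to 407989), a subunit of the peripheral stalk, stood at 114 and 103 RPKM in *sin3∆*, 118 and 122 RPKM in *srb2∆*, and 375 and 404 RPKM in *mig1∆*, against 466 and 561 RPKM in the wild type. The *sin3∆* and *srb2∆* libraries lay apart from all the others. Its log2 fold change was -2.23 ± 0.10 in *sin3∆* (SE, adjusted p = 1.63e-06), -2.08 ± 0.10 in *srb2∆* (SE, adjusted p = 2.05e-06) and -0.39 ± 0.10 in *mig1∆* (SE, adjusted p = 0.0509). *ATP15* (YPL271W, chromosome XVI from 30079 to 30267), the small epsilon subunit of the central stalk, stood at 456 and 341 RPKM in *sin3∆*, 390.3 and 418 RPKM in *srb2∆*, and 862 and 1228 RPKM in *mig1∆*, against 1293 and 2125 RPKM in the wild type. It was called lower in *sin3∆* (-2.07 ± 0.27 SE, adjusted p = 0.000263) and in *srb2∆* (-2.03 ± 0.27 SE, adjusted p = 0.000294). In *mig1∆*, where it stood at -0.69 (adjusted p = 0.14), it passed the threshold at -1.05 without wild-type replicate 2. The catalytic head is built from *ATP1* (YBL099W) and *ATP2* (YJR121W). *ATP1* was called lower in both *sin3∆* (-1.13, adjusted p = 4.92e-06) and *srb2∆* (-1.05, adjusted p = 7.07e-06), the second call being lost at -0.99 without wild-type replicate 2. *ATP2* was called in *srb2∆* (-1.22, adjusted p = 1.12e-05) and stood at -0.99 in *sin3∆* (adjusted p = 3.35e-05), with a call at -1.03 without *sin3∆* replicate 2 and at -1.10 without wild-type replicate 3. *ATP17* (YDR377W), a membrane subunit, was called in both strains, at -1.28 (adjusted p = 1.39e-05) and -1.07 (adjusted p = 3.58e-05). *ATP3* (YBR039W), the gamma subunit, and *ATP4* (YPL078C) and *ATP5* (YDR298C) of the peripheral stalk were called in *sin3∆* only, at -1.38, -1.18 and -1.002, and stood at -0.80, -0.94 and -0.81 in *srb2∆*. The call of *ATP5* was lost without *sin3∆* replicate 1 (-0.96) or wild-type replicate 3 (-0.90), and *ATP4* was called in *srb2∆*, at -1.08, without wild-type replicate 3. None of the 3 differed between *sin3∆* and *srb2∆* by the fold threshold, with differences of -0.58, -0.24 and -0.20. *ATP14* (YLR295C), *ATP16* (YDL004W) and *ATP20* (YPR020W) were called in neither strain, with log2 fold changes from -0.69 to -0.23.

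**Figure D4:**
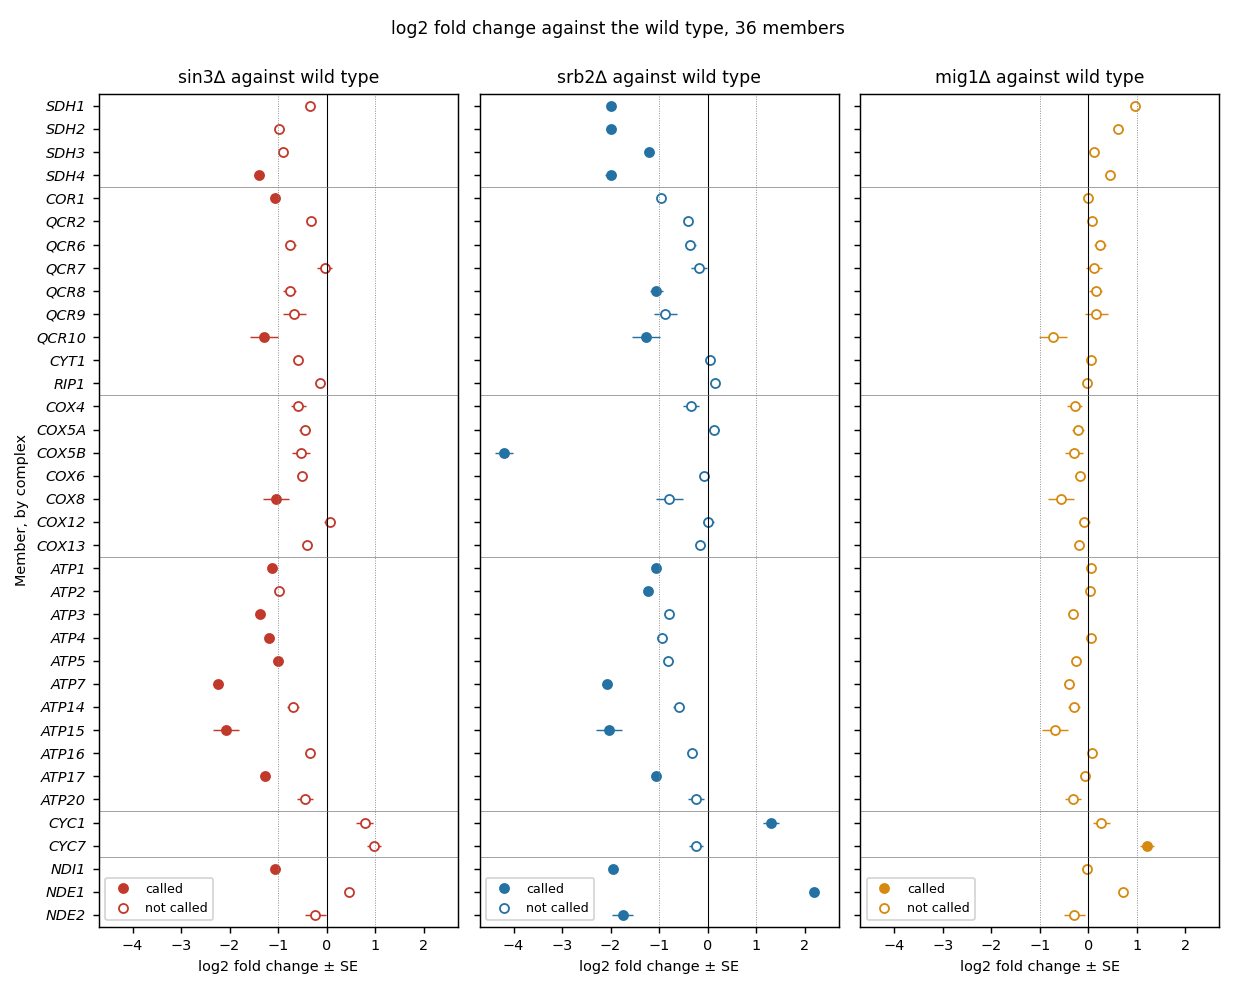
log2 fold change ± SE of 36 members against the wild type (*COX9* and *ATP18* were not tested, and *COX7* is left out because a wild-type library was listed at 0), by complex from top to bottom; filled points are calls, and dotted lines mark a fold change of 2. *COX5B* in *srb2∆* at -4.20 lies farthest left and *NDE1* in *srb2∆* at 2.19 farthest right.

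Most members hold a promoter motif that the choice by complex did not use. In the window from 250 bases before to 50 bases after the first base of the start codon, CCAAT on either strand was found in 32 of the 39 members (82.1%) and in 43.3% of 6020 protein-coding genes of R64. Its longer form TNATTGGT, which always holds a CCAAT on the other strand, was found in 15 members (38.5%) and in 5.7% of all genes. ATTGTT was found in 16 members (41.0%) and 35.2% of all genes, any of the 4 Mig1 forms in 10 members (25.6%) and 11.6%, and GCCGCC in *SDH1*, *SDH2*, *COX5A* and *ATP20* (10.3%) and 5.1%. In the 500 bases before the start codon, a window chosen after the data had been seen, TNATTGGT was found in 17 members (43.6%) and 8.7% of all genes. The 30 bases around the longer box are shown for the 15 genes that hold it, in the direction of the gene, with the box in capitals; in all but *COX6* it lies on the opposite strand and so is printed as its reverse complement.
QCR7 (chrIV:1496712-1496741, minus strand): atcttgttttgACCAATCAggagcgacgcg
RIP1 (chrV:107001-107030, plus strand): ctccataacggACCAATCAgcgttttgcgc
COX5B (chrIX:155138-155167, plus strand): ttaaacaatagACCAATTAtttcaatttaa
COX6 (chrVIII:209477-209506, plus strand): gaaaagggaccTAATTGGTccggtcaaagc
COX8 (chrXII:910149-910178, minus strand): aaacggtttgcACCAATCAtacgagagaag
COX12 (chrXII:225360-225389, minus strand): tcataacattgACCAATCAattttcagaaa
COX13 (chrVII:144584-144613, plus strand): ttttttttcccACCAATGAgaggcggtact
ATP3 (chrII:315368-315397, plus strand): cgtgatggagaACCAATGAgcggcgagtaa
ATP4 (chrXVI:408916-408945, minus strand): atcaatattgaACCAATCAcgacgcttttt
ATP7 (chrXI:408149-408178, minus strand): gtaaaagatacACCAATTAccacttgctgc
ATP14 (chrXII:722553-722582, minus strand): gccatacacgaACCAATTAtgcatcataaa
ATP15 (chrXVI:29934-29963, plus strand): cttttatacgaACCAATGAaatttgatcct
ATP17 (chrIV:1228370-1228399, plus strand): ttacggagagaACCAATCAtatcgaaggat
NDI1 (chrXIII:30017-30046, minus strand): tattcattcggACCAATCAtatgaaggcat
NDE1 (chrXIII:556560-556589, minus strand): tattctggtaaACCAATTAaagagagaaaa

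The boxes of 13 of these 15 genes began between 248 and 134 bases before the start codon, those of *NDE1* and *COX5B* at 103 and 73 bases, and *NDE1* held another at 10 bases. The stretch shown for *COX6* lay within another annotated gene. Of the 15 genes, 7 were called lower in *sin3∆* and 5 in *srb2∆*, where 5 and 9 of the 22 tested members with no box in the window were called lower. Of all genes, 12.2% were called lower in *sin3∆* and 14.9% in *srb2∆*. Their median log2 fold changes were -0.69 and -0.78, against -0.63 and -0.84 for the others.

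Other genes of the pathway were taken from lists by role, to be read beside the 12.2% of all genes called lower in *sin3∆* and the 14.9% in *srb2∆*. Of 13 regulators of respiratory genes, 2 were called lower in *sin3∆* and 2 in *srb2∆* (15.4% each, near those shares), with none called higher in either or called in *mig1∆*; their median log2 fold change was -0.73 in *sin3∆* and -0.51 in *srb2∆*. *ADR1*, an activator of genes for growth without glucose, stood at 5.43 and 5.66 RPKM in *sin3∆*, 4.38 and 4.34 RPKM in *srb2∆*, and 115 and 104 RPKM in *mig1∆*, against 65.9 and 48.1 RPKM in the wild type, with log2 fold changes of -3.13 (adjusted p = 1.48e-06), -3.42 (adjusted p = 9.43e-07) and 0.95 (adjusted p = 0.00765). *RSF1*, a factor needed for growth on glycerol, was lower in *srb2∆* (-1.80, adjusted p = 2.41e-06), and *MOT3*, a repressor of hypoxic genes, in *sin3∆* (-1.17, adjusted p = 2.5e-05). *HAP4*, the activation subunit that works at the CCAAT box, was not called and was picked after its values were seen. It stood at 55.6 and 64.9 RPKM in *sin3∆*, 51.8 and 53.5 RPKM in *srb2∆*, and 122 and 116.9 RPKM in *mig1∆*, against 77.0 and 69.2 RPKM in the wild type. *HAP4* was at -0.28 on the log2 scale in *sin3∆*, -0.46 in *srb2∆* and 0.70 in *mig1∆*, each with an adjusted p under 0.05 (limma). Its partners *HAP2*, *HAP3* and *HAP5* were not called either. *HAP2* stood at -0.81 in *sin3∆* and -0.65 in *srb2∆*, and *HAP3* at -0.96 and -0.87. *HAP5* was at 0.30 in *sin3∆* and -0.51 in *srb2∆*. In *mig1∆*, *HAP2* stood at -0.19, *HAP3* at -0.20 and *HAP5* at 0.31.

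Among 15 tested subunits, paralogs and partners outside the 39 genes, 5 were lower (33.3%) and 1 higher in *sin3∆*, and 7 were lower (46.7%) and 1 higher in *srb2∆*, with medians of -0.58 and -1.25. The ATP synthase inhibitor *INH1* and its paralog *STF1* were called lower in both strains, at -1.57 and -1.18 in *sin3∆* and at -3.35 and -5.54 in *srb2∆*. *STF1* stood at 236 and 224 RPKM in *sin3∆* and 14.0 and 7.44 RPKM in *srb2∆*, against 467 and 587 RPKM in the wild type, and the 2 deletions differed by 4.36 (adjusted p = 8.56e-06). *AAC3*, the ADP/ATP carrier made at low oxygen, was the gene that was higher in both, with 90.4 and 88.3 RPKM in *sin3∆* and 37.3 and 34.3 RPKM in *srb2∆*, against 4.36 and 4.78 RPKM in the wild type (4.02, adjusted p = 2.8e-07, and 2.73, adjusted p = 1.25e-06). *COX5B*, also a gene for a low-oxygen isoform, was lower in *srb2∆*. *POR1*, the channel of the outer membrane, was lower in *sin3∆* (-1.30, adjusted p = 2.17e-05) and *srb2∆* (-2.88, adjusted p = 5.25e-07).

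Among the assembly factors, most calls were lower too. For complex II, 2 of 4 were called lower in *sin3∆* and 3 in *srb2∆* (medians -1.28 and -1.60); *SDH6* stood at -0.11 in *sin3∆* (adjusted p = 0.57) and fell by 3.10 on the log2 scale in *srb2∆* (adjusted p = 2.62e-06). For complex III it was 2 of 11 in either strain (18.2%, medians -0.34 and -0.62), with *CBP6* at -1.61 and -1.38. For complex IV, 10 of 29 were lower (34.5%) and 1 higher in *sin3∆* and 14 were lower in *srb2∆* (48.3%), with medians of -0.83 and -0.96, among them *COX20* at -2.65 in *srb2∆* (adjusted p = 8.27e-07), and *COA2* was the gene called higher in *sin3∆* (1.89, adjusted p = 0.0348) and in *mig1∆* (2.57, adjusted p = 0.0495). *COA2* spread widely, with 163 and 53.0 RPKM in *sin3∆* and 152 and 147 RPKM in *mig1∆*, against 13.6 and 43.2 RPKM in the wild type. For ATP synthase it was 4 of 12 in *sin3∆* (33.3%, median -0.76) and 3 in *srb2∆* (25%, median -0.69), with *FMC1* lower in both (-1.71 and -1.61). Among 5 genes for cytochrome *c* maturation and electron transfer to it, 2 were lower in *sin3∆* and 3 in *srb2∆* (medians -0.57 and -1.02), and *CYB2*, the lactate dehydrogenase of the intermembrane space, fell by 3.14 on the log2 scale in *sin3∆* (adjusted p = 1.98e-07) and fell by 2.34 in *srb2∆* (adjusted p = 5.48e-07). Of 11 genes for ubiquinone synthesis, 3 were lower in *sin3∆* (27.3%, median -0.56) and 4 in *srb2∆* (36.4%, median -0.90), with *COQ6* in both (-2.13 and -2.23), and of 8 genes for heme synthesis, *HEM13* (-1.72 and -1.64) and *HEM15* (-2.74 and -2.51) were the 2 called lower in both (25%, medians -0.47 and -0.44). Apart from *COA2*, no gene of these lists was called in *mig1∆*. The subunits encoded by mitochondrial DNA were not analysed here.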

How the data were processed

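Poly(A) RNA of 8 libraries (2 each of *sin3∆*, *srb2∆*, *mig1∆* and ScY01a at 30°C) was sequenced, and reads were aligned to R64 with Bowtie2 and quantified with RSEM by the authors. The deposited values are named RPKM by the authors and were scaled between libraries by TMM. Their sums have a geometric mean of 999854, which is not a property of RPKM, so the name is uncertain. Of 6103 genes, 5977 matched R64, and 3 lines were blank and left out.

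The members and gene lists were chosen with earlier results of these data known. RPKM are not counts, so log2(RPKM + 1) was fitted, for genes that reached 1 RPKM in 2 or more libraries, with limma 3.58.1 (R 4.3.3, trended prior, 4 groups in 1 fit, 4 residual degrees of freedom, Benjamini-Hochberg over 5628 genes), and tested on simulated data. Calls needed the fold change to reach 2 and the adjusted p not to exceed 0.05. Isoform ratios were compared by an exact two-sided permutation test. Sequences and motifs were read from R64 with Biopython 1.88 (Python 3.11.15, numpy 2.4.6, pandas 2.3.3), the permutation test was run with scipy 1.17.1 and figures were drawn with matplotlib 3.10.9.

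All members were accounted for. Full values were given for the isoform pairs, *NDI1*, and in each complex the called members with the largest rise and fall, up to 2 in each direction; values of *SDH1*, *QCR8*, *CYT1* and *COX12*, and the range of *RIP1*, were added after they were seen. From each list up to 4 called genes were named. *HAP2*, *HAP3*, *HAP4* and *HAP5*, none of them called, were added after their values were seen. Alternatives changed the scaling, filter, pseudocount, prior, libraries in the fit, threshold, replicate block and each library in turn; leaving out genes under 300 bases and the 500-base motif window were chosen after seeing the data.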

Additional observations from a re-analysis of the deposited data

How the results depend on the processing

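With no fold threshold, 3 members were higher and 29 lower in *sin3∆* (beside 38.4% and 35.6% of all genes), 24 lower in *srb2∆* (36.3%), 5 higher and 1 lower in *mig1∆* (7.41% and 4.71%), and 9 higher and 8 lower in *sin3∆* than in *srb2∆* (30.9% and 27.9%). Against a fold change of 1.5, 1 member was higher in *sin3∆* and 0 in *mig1∆*. Quantile normalization gave 1 member lower in *mig1∆*. It also moved the median of all genes between *sin3∆* and *srb2∆* to -0.12, in place of 0.01, and the share of higher calls to 66.9%, in place of 80.1%. With a pseudocount of 5, 3 members were higher in *sin3∆* than in *srb2∆*. When each library was left out in turn, 0 to 1 members were higher and 9 to 14 lower in *sin3∆*, 12 to 15 lower in *srb2∆*, and 1 to 3 higher and 0 to 1 lower in *mig1∆*. These counts include *COX7*, which stood at -1.10 in *mig1∆* without wild-type replicate 3 and was called higher without wild-type replicate 2, where the remaining wild-type value is 0, so that its fitted 8.49 is set by the pseudocount and is no measured fold or bound. The log2 ratio of *COX5A* to *COX5B* in *srb2∆* against the wild type was 3.67 with a pseudocount of 5. That of *NDE1* to *NDE2* was 5.10 with a pseudocount of 0.1 and 2.80 with 5, and in *mig1∆* 0.81 with 5. The cause was not tested. With the replicate block, 2 members were higher and 14 lower in *srb2∆*, as without it. Over 5628 genes, the difference between replicates 2 and 3 in *srb2∆* correlated at 0.0614 with that in the wild type. Whether libraries with the same replicate number were prepared together is not given in the sources used here. A correlation of 1 difference per strain cannot settle it. Of the values for single genes and for the shares of complexes under an alternative, 2006 kept their direction and side of the threshold, 19 passed it, 20 no longer passed it, 49 changed sign with no call under either setting or, where no test was made, moved beyond the spread between libraries, and that of *COX7* above changed sign with a call. Few reads stood behind *NDE2* in *srb2∆*, and genes under 200 bases were often listed at 0.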
